A study of Homo sapiens with 16 samples.

Results

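SERPINH1 and 9 enzymes that process collagen were followed in TCCSUP, 253J, J82 and RT112, 4 established lines of human bladder cancer, given the histone deacetylase inhibitor CM-1758 or vehicle for 48 h. The enzymes were the prolyl 4-hydroxylase alpha subunits P4HA1, P4HA2 and P4HA3, the lysyl hydroxylases PLOD1, PLOD2 and PLOD3, the lysyl oxidases LOX and LOXL2, and the proteinase BMP1. These 10 genes are among the 35993 gene symbols of the count table, and all 10 passed the filter on low counts that left 21297 genes for testing. SERPINH1 was chosen by its fall with CM-1758 in these same libraries, so its values are a description with no test. The other 9 genes were chosen as its companions in collagen synthesis, with earlier results of these data known.

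Each of the 8 groups held 2 libraries, which the study describes as independent experiments. Every line received its own IC50 dose of CM-1758, the dose at the midpoint of the inhibition curve, and the control cultures received 0.01% DMSO according to the sample labels, although the study's own legend calls them untreated. The lines are labelled wild type, with no allele altered for the study. TCCSUP was grown in a different basal medium (EMEM) from the other lines (DMEM), so that medium and cell line cannot be told apart there. Total RNA was sequenced in bulk, and p-values measure the spread between 2 libraries of a group, borrowed across genes and groups by the fit.

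Collagen chains are modified while still in the endoplasmic reticulum. Prolyl 4-hydroxylases make the hydroxyproline that holds the triple helix together, and lysyl hydroxylases mark the lysines that later carry sugars and cross-links. SERPINH1 encodes HSP47, a chaperone of the serpin family that binds folded procollagen and escorts it to the Golgi, and its gene is known as a heat shock gene. Outside the cell BMP1 trims the C-propeptide, and LOX and LOXL2 oxidize lysines so that fibrils can be cross-linked. In tumors most fibrillar collagen comes from fibroblasts, and cancer cell lines differ widely in how much of it they make.

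The promoter of SERPINH1 is shown because this gene stood lower with CM-1758 in all 4 cell lines, that of PLOD3 because this enzyme was called lower in all 4 and that of PLOD2 because this enzyme moved in opposite directions between lines. Each sequence is the 250 bases before the gene start in the RefSeq promoter table (GRCh38.p14), written in the direction of transcription. Capitals mark a heat shock element in SERPINH1, a CCAAT box and a GC box in PLOD2, and GC boxes in PLOD3.
SERPINH1, chr11:75562003-75562252, plus strand: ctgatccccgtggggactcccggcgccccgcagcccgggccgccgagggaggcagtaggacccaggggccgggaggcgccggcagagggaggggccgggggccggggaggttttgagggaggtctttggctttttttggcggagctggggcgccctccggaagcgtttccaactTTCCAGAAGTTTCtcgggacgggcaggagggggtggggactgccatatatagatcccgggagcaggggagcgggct
PLOD2, chr3:146161185-146161434, minus strand: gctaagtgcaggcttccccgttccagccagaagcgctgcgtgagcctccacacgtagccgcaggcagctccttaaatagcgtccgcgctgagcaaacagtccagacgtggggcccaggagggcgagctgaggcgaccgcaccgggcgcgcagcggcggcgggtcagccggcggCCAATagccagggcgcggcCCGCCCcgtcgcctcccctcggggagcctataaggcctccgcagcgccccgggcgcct
PLOD3, chr7:101217582-101217831, minus strand: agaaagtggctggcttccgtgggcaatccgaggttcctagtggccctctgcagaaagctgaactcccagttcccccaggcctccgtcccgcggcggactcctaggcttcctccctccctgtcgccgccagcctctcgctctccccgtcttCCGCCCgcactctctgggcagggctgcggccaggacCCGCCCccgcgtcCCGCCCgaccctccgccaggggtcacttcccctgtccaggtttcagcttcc

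The heat shock element searched for was 3 alternating GAA and TTC triplets with any 2 bases between neighbours, on both strands. The SERPINH1 promoter held 1 such element, from 76 to 64 bases before the start, and the same bases matched on both strands. This motif was found in 155 of 35116 promoters of the same length, or 0.441%. None of the 6 other member promoters searched (P4HA1, P4HA2, PLOD1, PLOD2, PLOD3 and LOX) held it in these 250 bases. An endoplasmic reticulum stress element (CCAAT, any 9 bases, then CCACG) was found in 26 promoters (0.074%) and in none of the 7 member promoters searched. A CCAAT box (CCAAT) was found in 32% of all promoters, in PLOD2 and LOX at 1 site each and in P4HA2 at 2. A GC box (GGGCGG) was found in 42.6% of all promoters, at 4 sites in PLOD1, 3 in PLOD3 and 1 each in PLOD2 and LOX, and the CCAAT and GC boxes overlapped at none of these sites. These matches describe letters in the reference and carry no measurement of binding.

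SERPINH1 was lower with CM-1758 in all 8 treated libraries than in the control libraries of the same line. Levels are given as CPM, counts scaled by sequencing depth (the library size times its TMM factor). In 253J, SERPINH1 stood at 424 and 423 CPM in control and 35.3 and 35.1 CPM with CM-1758. In J82 it stood at 516 and 461 CPM in control and 46.8 and 25.7 CPM with CM-1758. In RT112 it stood at 139.6 and 140.4 CPM in control and 10.7 and 10.98 CPM with CM-1758. No treated library reached the lowest control library of any line, that of RT112 included. TCCSUP, the line with the highest control level, held 1034 and 961 CPM in control and 41.7 and 46.3 CPM with CM-1758. The log2 fold change was -3.59 (SE 0.22) in 253J, -4.50 (SE 0.23) in TCCSUP, -3.75 (SE 0.22) in J82 and -3.69 (SE 0.22) in RT112. The treated level was thus 8.31%, 4.41%, 7.42% and 7.74% of control in the same order. Of the 21297 genes tested, 0.610% had a lower log2 fold change than SERPINH1 in 253J, 0.413% in TCCSUP, 0.568% in J82 and 0.592% in RT112. The replicates of J82 with CM-1758 lay farthest apart, and those of 253J and RT112 were close. In bulk libraries, fewer cells that express a gene and less RNA per cell cannot be told apart.

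**Figure D1:**
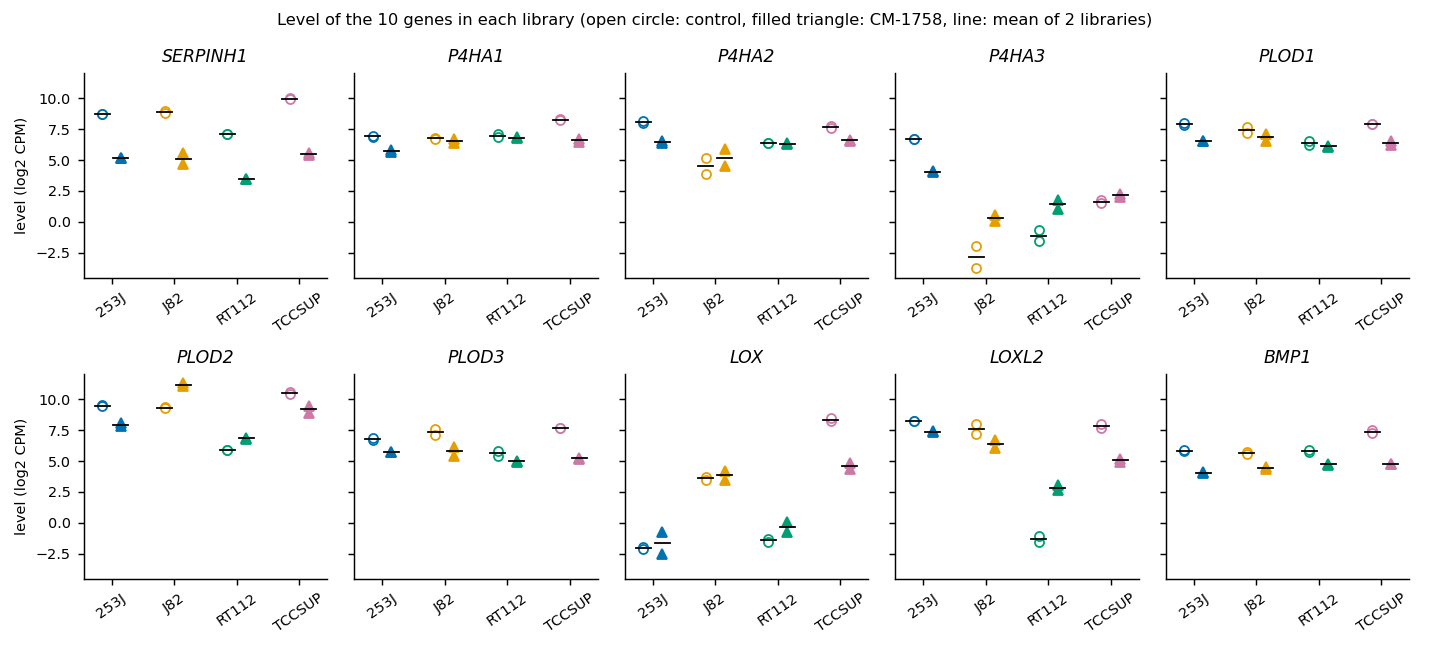
Level of the 10 genes in each library, as log2 CPM with a prior count of 2, by cell line; open circles are control libraries, filled triangles CM-1758 libraries and black lines the mean of 2 libraries. SERPINH1 was lower with CM-1758 in all 4 lines, while P4HA3, LOX and LOXL2 were near 0 counts in the controls of some lines and high in others.

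The control libraries of SERPINH1 were part of the fall that chose it, so the differences between lines are also given with no test. RT112 was lowest and TCCSUP highest, with a log2 difference of 2.83 (SE 0.21). TCCSUP was also above 253J by 1.24 (SE 0.20) and above J82 by 1.03 (SE 0.20). Between 253J and J82 the difference was about as large as its standard error, at 0.20 (SE 0.20). Both stood above RT112, 253J by 1.60 (SE 0.20) and J82 by 1.80 (SE 0.20). With CM-1758 the order of the means was RT112, 253J, J82 and TCCSUP, at 10.8, 35.2, 36.2 and 44.0 CPM.

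Set against the other 9 genes, SERPINH1 lost its place. It supplied 17.97% to 27.2% of the counts on the 10 genes in the 8 control libraries and 0.902% to 5.03% in the 8 treated libraries. Both extremes of the treated range are of 1 library each, 0.902% in J82 and 5.03% in TCCSUP. Per kilobase of exon, which allows levels of different genes to be compared, SERPINH1 ranked 2 of the 10 in the controls of every line. In 253J controls it stood at 87.1 CPM per kb, below PLOD2 at 160.0 CPM per kb and close to LOXL2 at 85.2 and PLOD1 at 82.8. In RT112 controls it stood at 28.8 CPM per kb, below P4HA1 at 43.01 CPM per kb and close to PLOD1 at 28.2. Its rank in these 2 lines thus rests on small differences and on the exon lengths used. With CM-1758 it ranked 8 in 253J and 7 in J82, RT112 and TCCSUP, at levels of 2.23 to 9.04 CPM per kb. Its mean ratio to the 9 genes was lower with CM-1758 wherever it could be formed. The drop was least against LOX in TCCSUP (by 0.72 on the log2 scale) and against P4HA3 in 253J (by 0.95). In J82 the mean ratio to P4HA3 could not be formed, as a control library had 0 counts of P4HA3. The ratio to LOX in 253J rests on at most 13 LOX counts in a library. SERPINH1 was chosen by its fall, so a lower share, rank and ratio follow in large part from that choice.

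**Figure D2:**
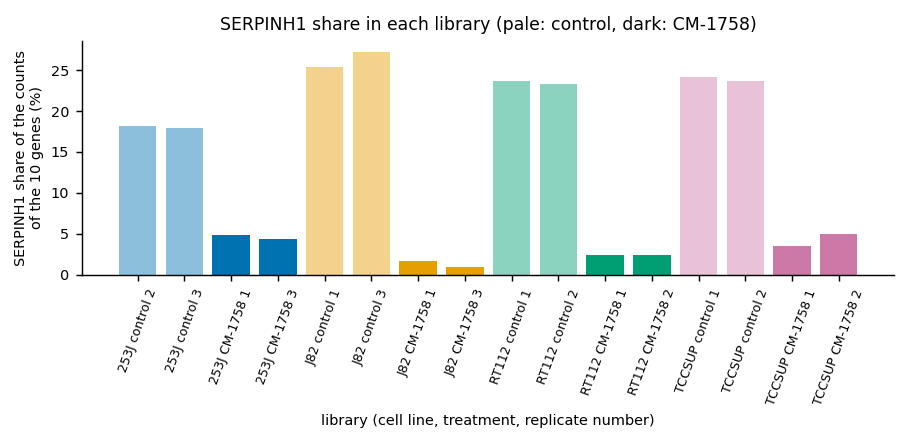
Share of SERPINH1 in the counts on the 10 genes, in percent, in each of the 16 libraries; pale bars are control and dark bars CM-1758. Control bars lie between 17.97% and 27.2% and treated bars between 0.902% and 5.03%.

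The calls of the other 9 genes differed between lines. A gene was called at an adjusted p under 0.05 by the edgeR quasi-likelihood test. In 253J 8 of the 9 were lower and 0 higher, where 22.4% of all tested genes were called lower and 28.8% higher. In TCCSUP 8 were lower and 0 higher, against 22.1% and 32% of all genes. J82 gave 4 lower and 2 higher, against 18.5% and 24%, so that its higher calls were near the share of all genes. RT112 gave 2 lower and 3 higher, against 20.2% and 27.4%, both near the shares of all genes. The counts of 0 higher in 253J and TCCSUP, from edgeR, were also 0 at an unadjusted p under 0.05 and with DESeq2. Of the 36 combinations of gene and line, 22 were lower, 5 higher and 9 not called. The median log2 fold change over the 9 genes was -1.41 in 253J, -1.64 in TCCSUP, -0.19 in J82 and -0.04 in RT112, while that of all tested genes was 0.10, 0.20, 0.05 and 0.12 in the same order.

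By the thresholds of the study, a log2 fold change beyond 2 and an adjusted p under 0.01, fewer combinations were called. P4HA3 was lower in 253J, where 3.5% of genes were lower and 9.43% higher by this rule. J82 had no gene of the 9 lower and P4HA3 higher, against 1.24% and 8.81% of genes. In RT112 no gene was lower, and P4HA3 and LOXL2 were higher, against 1.39% and 11.4%. TCCSUP had PLOD3, LOX, LOXL2 and BMP1 lower and no gene higher, against 3.31% and 14.2%. Each count of 0 by this rule was also 0 with edgeR at an unadjusted p under 0.01 and with DESeq2. The effect of CM-1758 differed between cell lines for all 9 genes (interaction F test, adjusted p from 1.05e-07 for PLOD2 to 0.00657 for P4HA2), as it did for 51.9% of all tested genes.

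**Figure D3:**
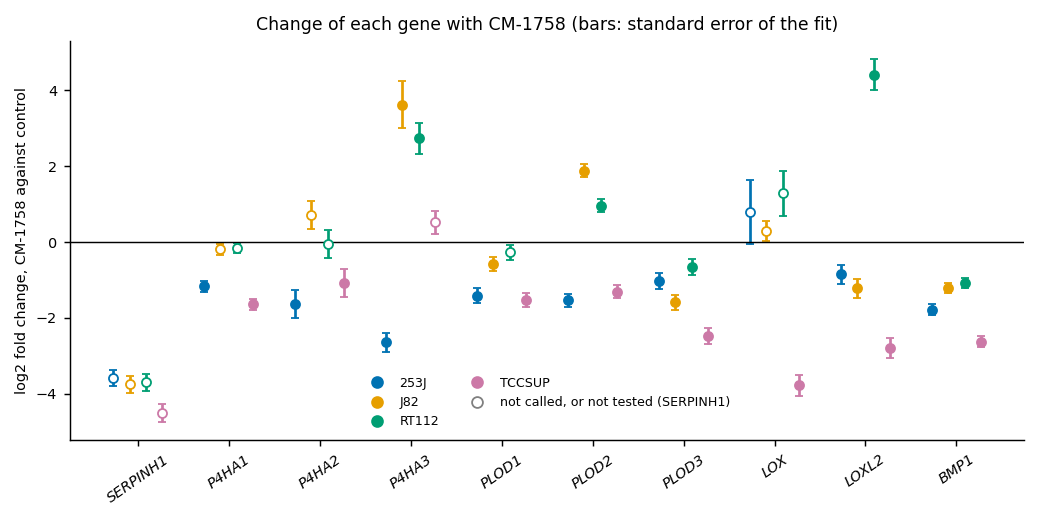
Log2 fold change with CM-1758 against control for each gene and cell line, with the standard error of the fit; filled points have an adjusted p under 0.05 and open points were not called, or not tested in the case of SERPINH1. PLOD3 and BMP1 lie below 0 in all 4 lines, and PLOD2, P4HA3 and LOXL2 have filled points on both sides of 0.

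Among the prolyl 4-hydroxylase alpha subunits, P4HA1 and P4HA2 fell in the same pair of lines. P4HA1, the broadly expressed subunit, stood at 119.7 and 121 CPM in control and 51.2 and 55.9 CPM with CM-1758 in 253J. In TCCSUP it stood at 315 and 299 CPM in control and 107 and 90.5 CPM with CM-1758. The groups did not overlap, and the log2 fold changes were -1.17 (SE 0.14, adjusted p = 8.77e-06) in 253J and -1.64 (SE 0.15, adjusted p = 4.25e-07) in TCCSUP. In J82 the values were 109 and 106 CPM in control and 104 and 83.8 CPM with CM-1758, a log2 fold change of -0.19 (SE 0.14, adjusted p = 0.3). In RT112 they were 137 and 114 CPM in control and 109.6 and 116 CPM with CM-1758, and the groups overlapped, with a log2 fold change of -0.16 (SE 0.14, adjusted p = 0.38). The effect in TCCSUP was lower than that in J82 by a difference of -1.44 on the log2 scale (SE 0.20, adjusted p = 0.00013).

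P4HA2, the second catalytic subunit, held 250.02 and 291 CPM in control and 81.7 and 92.7 CPM with CM-1758 in 253J, a log2 fold change of -1.63 (SE 0.37, adjusted p = 0.00186). In TCCSUP it held 215 and 189 CPM in control and 99.9 and 92.2 CPM with CM-1758, a log2 fold change of -1.07 (SE 0.37, adjusted p = 0.0226). Neither pair of groups overlapped, but the call in TCCSUP was lost when control replicate 1 (adjusted p = 0.0912), CM-1758 replicate 1 (0.0763) or CM-1758 replicate 2 (0.107) was left out, and with library size alone (0.105). RT112 gave 83.01 and 81.4 CPM in control and 77.5 and 81.8 CPM with CM-1758, with overlapping groups and a log2 fold change of -0.04 (SE 0.36, adjusted p = 0.969). In J82 the values were 35.9 and 14.8 CPM in control and 60.7 and 22.3 CPM with CM-1758. Replicate 1 was above replicate 3 in both J82 groups, as it was for SERPINH1, P4HA1, PLOD1, PLOD3, LOX, LOXL2 and BMP1. With CM-1758, PLOD2 and P4HA3 had the opposite order in J82. The P4HA2 groups overlapped, and the log2 fold change was 0.71 (SE 0.37, adjusted p = 0.142). That of J82 became 1.49 (adjusted p = 0.00729) without control replicate 1, 1.26 (adjusted p = 0.00694) without CM-1758 replicate 3 and -0.11 (adjusted p = 0.9) without CM-1758 replicate 1.

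P4HA3, the subunit of the most restricted expression, was abundant in 253J only among the controls: it had 2914 and 2676 counts there, 5 and 0 in J82, 8 and 16 in RT112 and 83 and 73 in TCCSUP. The control level differed between lines (adjusted p = 4.43e-12), as did that of 78.8% of all tested genes, and 253J was above TCCSUP by 5.10 (SE 0.30, adjusted p = 1.69e-09) on the log2 scale. With CM-1758 the counts were 427 and 485 in 253J, 124 and 103 in TCCSUP, 27 and 42 in J82 and 86 and 53 in RT112. It therefore fell where it was high and rose in J82 and RT112 from near the floor, with no overlap of groups in any line. The log2 fold changes were -2.64 (SE 0.26, adjusted p = 9.69e-07) in 253J, 0.52 (SE 0.30, adjusted p = 0.154) in TCCSUP, 3.62 (SE 0.62, adjusted p = 0.000264) in J82 and 2.74 (SE 0.41, adjusted p = 7.01e-05) in RT112. In J82 1 control library was at 0, so that the size of its change rests on 5 control counts (8.04 without control replicate 1, which leaves a control of 0 counts). P4HA3 lies across from PPME1 on the opposite strand, a gene with 685 to 25823 counts per library, and the strand setting of the counting was not given in the sources used here, so reads of the pair cannot be told apart. PPME1 itself had log2 fold changes of -0.32 in 253J, 0.06 in TCCSUP, 0.13 in J82 and -0.14 in RT112, none of them called (adjusted p from 0.0713 to 0.731).

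The lysyl hydroxylases gave 3 different pictures. PLOD1, which hydroxylates lysines of the triple helix, held 231 and 256 CPM in control and 91.8 and 91.4 CPM with CM-1758 in 253J and had a log2 fold change of -1.41 (SE 0.20, adjusted p = 2.54e-05). TCCSUP held 246 and 237 CPM in control and 93.7 and 73.9 CPM with CM-1758, a log2 fold change of -1.53 (SE 0.20, adjusted p = 1.36e-05). Both changes were larger than the gap between replicates. J82 held 204 and 148 CPM in control and 140.1 and 95.5 CPM with CM-1758, a log2 fold change of -0.58 (SE 0.19, adjusted p = 0.0243), and the nearest control and treated libraries were close. The J82 call was lost without control replicate 1 (adjusted p = 0.234) or CM-1758 replicate 3 (0.252), with RLE normalization (0.0521), library size alone (0.106) and the cell line fitted alone (0.129). RT112 held 74.4 and 91.2 CPM in control and 69.6 and 67.96 CPM with CM-1758, and the log2 fold change of -0.27 (SE 0.19, adjusted p = 0.271) was not called.

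PLOD2, the enzyme that hydroxylates the telopeptide lysines used for stable cross-links, changed in all 4 lines but not in 1 direction. In 253J it fell, at 727 and 693 CPM in control and 226 and 263 CPM with CM-1758. In TCCSUP, the line with the highest control level, it fell as well, at 1577 and 1392 CPM in control and 712 and 485 CPM with CM-1758. J82 moved the other way, at 650.2 and 620.3 CPM in control and 2187 and 2482 CPM with CM-1758. RT112, with the lowest control level, held 59.3 and 58.8 CPM in control and 116 and 113 CPM with CM-1758. No groups overlapped in any of the 4 lines. The log2 fold changes were -1.54 (SE 0.17, adjusted p = 3.63e-06) in 253J, -1.31 (SE 0.17, adjusted p = 1.69e-05) in TCCSUP, 1.88 (SE 0.17, adjusted p = 1.17e-06) in J82 and 0.96 (SE 0.17, adjusted p = 0.000371) in RT112. The effect in J82 was above that in 253J by 3.42 on the log2 scale (SE 0.25, adjusted p = 2.23e-07), and that in RT112 above 253J by 2.50 on the log2 scale (SE 0.24, adjusted p = 3.25e-06). In treated J82 SERPINH1 was therefore at 7.42% of control while PLOD2 rose to 367%, and PLOD2 alone reached 526 CPM per kb, the highest level of any of the 10 genes in any group.

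PLOD3, which also attaches sugars to hydroxylysine, was lower in all 4 lines. The values were 104 and 116 CPM in control and 53.9 and 53.6 CPM with CM-1758 in 253J. They were 196 and 141 CPM in control and 68.8 and 43.2 CPM with CM-1758 in J82. RT112 gave 42.7 and 56.7 CPM in control and 30.99 and 31.7 CPM with CM-1758. The treated libraries stayed below the controls in each of these lines, as they did in TCCSUP at 207 and 203 CPM in control and 37.4 and 36.4 CPM with CM-1758. The log2 fold changes were -1.03 (SE 0.20, adjusted p = 0.000606) in 253J, -2.47 (SE 0.21, adjusted p = 3.03e-07) in TCCSUP, -1.59 (SE 0.21, adjusted p = 2.35e-05) in J82 and -0.66 (SE 0.20, adjusted p = 0.0149) in RT112. The call in RT112 was lost without control replicate 2 (adjusted p = 0.166), CM-1758 replicate 1 (0.0713) or CM-1758 replicate 2 (0.0608) and with library size alone (0.0665). The fall in TCCSUP was deeper than that in RT112 by a difference of -1.81 on the log2 scale (SE 0.29, adjusted p = 0.00027).

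The lysyl oxidases differed widely in level between lines. LOX, the main cross-linking enzyme of fibrillar collagen, was high in TCCSUP controls alone, at 7493 and 9493 counts, against 346 and 306 in J82, 10 and 8 in RT112 and 5 and 4 in 253J. TCCSUP was above J82 by 4.77 (SE 0.30, adjusted p = 6.34e-09) on the log2 scale, while 253J and RT112 did not differ beyond their spread, at 0.82 (SE 0.81, adjusted p = 0.43). In TCCSUP, LOX fell to 547 and 706 counts with CM-1758, a log2 fold change of -3.77 (SE 0.28, adjusted p = 8.28e-08), or 7.31% of control. Of the 9 enzymes and 4 lines this was the fall that came nearest to that of SERPINH1 in the same line. The treated counts were 520 and 323 in J82, 13 and 25 in RT112 and 13 and 3 in 253J. None of these 3 changes was called, at log2 fold changes of 0.28 (SE 0.27, adjusted p = 0.43), 1.28 (SE 0.60, adjusted p = 0.0915) and 0.79 (SE 0.83, adjusted p = 0.461), though DESeq2 called the RT112 change higher (1.37, adjusted p = 0.0194). LOX lies across from SRFBP1 on the opposite strand, at 656 to 1794 counts per library, so the few LOX reads of 253J and RT112 cannot be told apart from reads of that gene.

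LOXL2, a lysyl oxidase with activity toward basement membrane collagen, was abundant in every line but RT112. Its control counts were 8569 and 7684 in 253J, 6766 and 3923 in J82, 5133 and 6831 in TCCSUP and 8 and 12 in RT112. With CM-1758 they were 4040 and 5163, 2883 and 2011, 823 and 925 and 157 and 215 in the same order. LOXL2 thus fell in the 3 lines where it was high and rose in the 1 where it was nearly absent, and the groups did not overlap in CPM in any line. The log2 fold changes were -0.86 (SE 0.25, adjusted p = 0.00958) in 253J, -1.22 (SE 0.25, adjusted p = 0.00117) in J82, -2.79 (SE 0.27, adjusted p = 8.41e-07) in TCCSUP and 4.41 (SE 0.42, adjusted p = 1.1e-06) in RT112. Even after its rise LOXL2 stood at 2.02 CPM per kb in RT112, below the 9.47 CPM per kb left in treated TCCSUP. The call in 253J was lost without CM-1758 replicate 1 (adjusted p = 0.0624) and with library size alone (0.0761). The value in J82 was -0.74 (adjusted p = 0.0188) without control replicate 1.

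BMP1, which cleaves the C-propeptide of procollagen and also activates LOX, was lower in all 4 lines with no overlap of groups. It held 55.3 and 58.9 CPM in control and 17.1 and 16.1 CPM with CM-1758 in 253J. In J82 it held 52.05 and 46.7 CPM in control and 22.5 and 19.97 CPM with CM-1758, and in RT112 51.9 and 59.5 CPM in control and 25.3 and 27.4 CPM with CM-1758. TCCSUP controls, at 180.1 and 152 CPM, were above those of the other lines, which did not differ from each other beyond their spread (adjusted p from 0.201 to 0.904). TCCSUP with CM-1758 held 26.4 and 27.6 CPM, close to treated RT112. The log2 fold changes were -1.78 (SE 0.14, adjusted p = 1.35e-07) in 253J, -2.62 (SE 0.14, adjusted p = 4.05e-09) in TCCSUP, -1.22 (SE 0.14, adjusted p = 6.3e-06) in J82 and -1.08 (SE 0.13, adjusted p = 1.43e-05) in RT112. The fall in TCCSUP was deeper than in 253J by a difference of -0.84 on the log2 scale (SE 0.19, adjusted p = 0.00367), and J82 and RT112 were not shown to differ, at 0.13 on the log2 scale (SE 0.19, adjusted p = 0.73).

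The 5 genes whose 8 group means were most like those of SERPINH1, by the root mean square difference of log2 CPM centred on each gene's own mean, were TFPI (0.75), CLCF1 (0.79), TAPBPL (0.82), LOC112694756 (0.85) and APOC1 (0.87). TFPI, an inhibitor of the tissue factor pathway of coagulation, had log2 fold changes of -3.18 in 253J, -3.65 in TCCSUP, -1.88 in J82 and -2.07 in RT112. Among 21296 ranked genes PLOD3 came at place 86, BMP1 at 124, PLOD1 at 412 and P4HA1 at 1486. The remaining 5 enzymes came later, from P4HA2 at 5717 to P4HA3 at 18925. These are likenesses over 8 group means of the same libraries and carry no test.

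None of the 6 protein-coding genes nearest to SERPINH1 on its chromosome was called lower in all 4 lines. In RT112 4 of them were called lower, where 20.2% of all tested genes were. The share of all genes called lower in all 4 lines is not given here, for these genes or for PLOD3 and BMP1. In the RefSeq gene order the 3 protein-coding genes before SERPINH1 are RPS3, KLHL35 and GDPD5, and the 3 after it MAP6, MOGAT2 and DGAT2. GDPD5, its nearest neighbour on 1 side, rose in all 4 lines, by 0.94 in 253J, 0.57 in TCCSUP, 2.66 in J82 and 0.88 in RT112 on the log2 scale (adjusted p = 0.000590, 0.0139, 1.92e-07 and 0.000875). MAP6, its nearest on the other side, rose in J82 (5.62), RT112 (2.67) and TCCSUP (2.03) from low counts and had no count in 253J. RPS3 was lower in RT112 (-0.81, adjusted p = 0.00557) and not called in the other lines. KLHL35, at 0 to 102 counts, was lower in J82 (-2.84, adjusted p = 0.000890) and RT112 (-1.95, adjusted p = 0.00738). MOGAT2, at 0 to 109 counts, was lower in RT112 (-4.03, adjusted p = 0.00362), below the value of SERPINH1 in that line, and higher in TCCSUP (adjusted p = 0.0396), where both control libraries were at 0. DGAT2 was higher in J82 (2.34) and TCCSUP (2.82) and lower in RT112 (-1.49). The processed pseudogene SERPINH1P1, which could share reads with SERPINH1, had 0 to 6 counts in any library.

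The wider group of 25 collagen-processing genes, which holds the partners and relatives of the enzymes above, had more lower than higher calls in 253J and TCCSUP and more higher than lower calls in J82 and RT112. All 25 were tested. In 253J 18 were lower and 0 higher (0 also at an unadjusted p under 0.05 and with DESeq2), with a median log2 fold change of -1.05, and in TCCSUP 13 were lower and 4 higher, with a median of -1.23. In J82 5 were lower and 7 higher (median 0.40), and in RT112 6 were lower and 9 higher (median 0.44). Of all tested genes 18.5% were lower and 24% higher in J82 and 20.2% and 27.4% in RT112, so that more higher than lower calls was the pattern of all genes there as well. In 253J and TCCSUP, where the list had more lower calls, all genes had more higher calls (22.4% lower and 28.8% higher, and 22.1% and 32%). Those with the largest mean change were TLL2, a relative of BMP1, and the procollagen N-proteinases ADAMTS14 and ADAMTS2. TLL2 had 0 to 6 counts in J82 controls and 115 to 159 with CM-1758 (log2 fold change 5.36, adjusted p = 1.65e-05), and also rose in RT112 (3.54, adjusted p = 2.85e-05) and TCCSUP (4.06, adjusted p = 6.72e-05), but fell in 253J from 1969 to 2310 counts to 890 to 1338 (-0.98, adjusted p = 0.0209). ADAMTS2 fell in 253J (-1.84, adjusted p = 0.000515) and rose in RT112 from 2 counts in each control library to 94 and 137, and in TCCSUP by 4.75 (adjusted p = 1.09e-05). ADAMTS14 rose in RT112 (5.54, adjusted p = 5.05e-06) and TCCSUP (1.04, adjusted p = 0.0232) and was not called in 253J or J82. The size for ADAMTS14 in RT112 rests on control counts of 0 and 7. In TCCSUP the controls held 0 and 6 counts of ADAMTS2 and 0 and 11 of TLL2, which limits those sizes as well. Chosen after their values were seen, CRTAP, PPIB and P3H1 are partners in the prolyl 3-hydroxylation complex. CRTAP and PPIB were lower in all 4 lines. In 253J, J82, RT112 and TCCSUP the log2 fold changes were -2.48, -1.52, -1.43 and -2.47 for CRTAP and -1.54, -0.66, -0.86 and -1.47 for PPIB. P3H1 was lower in 253J (-0.75, adjusted p = 0.00119) but higher in J82 (0.62, adjusted p = 0.00591) and RT112 (0.99, adjusted p = 0.000176). In TCCSUP P3H1 was not called (-0.20, adjusted p = 0.318). P4HB, the shared beta subunit of the prolyl 4-hydroxylases, was lower in 253J (-0.67), RT112 (-0.68) and TCCSUP (-1.31) and not called in J82 (-0.33).

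The 13 collagen chain genes, the substrates of these proteins, moved in both directions in each line. Lower and higher were 4 and 4 in 253J, 6 and 5 in TCCSUP, 3 and 3 in J82 and 3 and 7 in RT112, with median log2 fold changes of 0.87, 0.54, 0.19 and 1.2. The shares of all genes given above for the wider group are the background of these counts. Most counts lie near it, and the higher calls in RT112 and the lower calls in TCCSUP lie above it. Calls in both directions are thus no trait of this list. COL5A3 had the largest mean change and rose in all 4 lines, from 0 counts to 42 and 67 in 253J (at least 17.6-fold against 3 counts per library), from 2 and 14 to 1299 and 1862 in J82, from 13 to 1455 and 1506 in RT112 and from 102 and 113 to 1705 and 1710 in TCCSUP. COL11A1 and COL2A1, next by mean change, had at most 9 and 6 counts in any control library. Chosen after their values were seen, COL1A2 and COL3A1, chains of the main fibrillar collagens, were high in the controls of TCCSUP and J82, and COL1A1 in those of TCCSUP. In TCCSUP COL1A1 fell from 988 to 99.1 CPM, COL1A2 from 5203 to 256 CPM and COL3A1 from 658 to 9.22 CPM (log2 fold changes -3.32, -4.34 and -6.15, adjusted p = 1.54e-08, 9.28e-09 and 3.9e-10). In J82 COL3A1 fell from 3078 to 1753 CPM (-0.81, adjusted p = 0.00169), while COL1A1 rose from 2.17 to 10.4 CPM (2.27, adjusted p = 2.99e-06).

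The cell lines were checked against markers. The 15 urothelial and epithelial markers summed to 519 to 8639 CPM per library, with 1 to 6 of them at 3 counts or fewer in both libraries of a group. Single markers differed: UPK2, a urothelial surface protein, was at 0 counts in 253J, in J82 and in the TCCSUP controls. The keratins KRT8, KRT18 and KRT19 had at least 996 counts in every library of all 4 lines. The 4 endothelial markers summed to 0 to 13.6 CPM and the 4 immune markers to 3.13 to 68.5 CPM. The 6 fibroblast markers ran from 0.153 CPM in a 253J control to 1967 CPM in a TCCSUP control. In TCCSUP all 6 fibroblast markers were above the floor of 3 counts in control, and their sum went from 1834 and 1967 CPM in control to 338 and 378 CPM with CM-1758, in the same direction as 8 of the 9 enzymes in that line. Their sum in 253J was at most 0.398 CPM in control and 2.43 CPM with CM-1758, where 8 of the 9 enzymes also fell. In RT112 the sum, nearly all of it LUM, was 1330 to 1364 CPM in control and 818 to 890 CPM with CM-1758. In J82 it went the other way, from 102 and 109 CPM in control to 158 and 191 CPM with CM-1758. There 4 of the 9 enzymes were called lower and 2 higher. The part of these markers in the results was not tested. By the chi-square of the counts per degree of freedom, replicates of J82 were the least alike of the 4 lines. It was 73.1 between J82 controls and 49.2 between J82 treated libraries, against 11.7 to 21.8 in the other groups. The correlation of log2 CPM between replicates did not single out J82, at 0.986 in control and 0.984 with CM-1758. It was lowest in TCCSUP with CM-1758, at 0.983.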

How the data were processed

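RNA from 4 bladder cancer cell lines was sequenced in 16 libraries at 48 h. The authors deposited whole-number counts per gene symbol, without normalization, for 35993 symbols. The submitters' processing notes name HISAT2, StringTie and the build GRCh37, with no role or order, and the paper describes stranded total RNA libraries with ribosomal RNA removed and DESeq2 for the comparisons. The strand setting of the counting was not given in the sources used here. No column was left unmatched (0), and groups came from the sample labels.

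Total counts ran from 22506431 to 32537104 per library. Low genes were removed by filterByExpr using the 8 groups, and the rest were scaled by TMM and fitted together with edgeR 4.0.16 (glmQLFit, glmQLFTest) in R 4.3.3, with 8 residual degrees of freedom and a common biological coefficient of variation of 0.153. P-values were adjusted by Benjamini-Hochberg over all 21297 genes in each contrast, two-sided. The standard error of a change was taken as its size over the root of its F statistic. Log2 CPM used a prior count of 2, and 3 counts were taken as the floor, which covers counting error only. The fit was tested on simulated data. Exon lengths came from GENCODE, as all bases covered by an exon of any protein-coding transcript of the gene. Gene order and promoter sequences came from RefSeq (GRCh38.p14), used for names and order only where the build of the counts differs.

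The members and all gene lists were chosen with earlier results of these data known. All members are named, and in each other list the 3 genes with the largest absolute mean change, the 5 genes most like SERPINH1, its 3 neighbours on each side and overlapping genes; others are said to be chosen after their values were seen. Alternatives were RLE, library size alone, TMM without 7 small noncoding RNA genes, other filters (none, or at least 10 counts in every library), DESeq2 1.42.0, each line alone, the replicate block, the thresholds of the study and leaving out each library. Promoters were searched for 7 members. LOXL2, BMP1 and P4HA3 were not searched.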

Additional observations from a re-analysis of the deposited data

Results flagged for a closer look

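The effect of CM-1758 differed between the 4 cell lines for each of the 9 enzymes, by the interaction test of edgeR adjusted over all tested genes. The adjusted p was 4.21e-05 for P4HA1, 0.00657 for P4HA2, 6.6e-07 for P4HA3, 0.0025 for PLOD1, 1.05e-07 for PLOD2, 0.000559 for PLOD3, 2.28e-06 for LOX, 2.89e-07 for LOXL2 and 3.47e-05 for BMP1. Called changes in opposite directions in different lines were found for P4HA3, PLOD2 and LOXL2. For PLOD3 and BMP1 the lines differed in the depth of the fall. With 2 libraries a group, libraries were not tested as outliers.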

How the results depend on the processing

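SERPINH1 kept its direction in every setting, with log2 fold changes of -3.60 to -3.32 in 253J, -4.58 to -4.19 in TCCSUP, -4.17 to -3.38 in J82 and -3.71 to -3.54 in RT112 over 24 alternatives each. Beyond the spread of its replicates it moved with RLE (-3.55 in 253J, -3.61 in RT112), library size alone (-3.32, -3.54 and -4.19 in 253J, RT112 and TCCSUP), no filter (-3.58 in 253J), at least 10 counts in every library (-3.51, -3.56 and -4.35 in 253J, RT112 and TCCSUP), DESeq2 (-3.55 and -3.61 in 253J and RT112) and 253J alone (-3.60). Leaving out 1 library at a time gave 1 to 2 enzymes lower in RT112 (1 without control replicate 2, CM-1758 replicate 1 or CM-1758 replicate 2), and SERPINH1 at -3.60 to -3.57 in 253J (-3.57 without J82 CM-1758 replicate 1). Library size alone shifted the median log2 fold change of all genes by 0.271, 0.145, 0.148 and 0.311 in 253J, J82, RT112 and TCCSUP, and gave 1 enzyme higher in TCCSUP (P4HA3) and 1 lower in RT112. With at least 10 counts in every library, which removes P4HA3, LOX and LOXL2 from the test, 1 was higher in J82 and 1 in RT112. The thresholds of the study left 1 lower in 253J, 0 lower and 1 higher in J82, 0 lower in RT112 and 4 lower in TCCSUP. Small uncalled changes turned sign: P4HA2 in RT112 with RLE (0.034), library size alone (0.10), at least 10 counts (0.084) and DESeq2 (0.034), and LOX in 253J under the replicate block (-0.58). Leaving out 1 library gave -0.11 to 1.49 for P4HA2 in J82 (-0.11 without CM-1758 replicate 1), -0.071 to 0.62 for LOX in J82 (-0.071 without CM-1758 replicate 1) and -0.70 to 1.59 for LOX in 253J (-0.70 without CM-1758 replicate 1).

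Replicate numbers were not taken to pair the samples, since no label says what they share: the deviations of same-numbered libraries correlated at 0.0173 in TCCSUP, 0.218 in J82 and 0.0427 in RT112, and 253J shares 1 number only. With the replicate block, P4HA2 in J82 (0.68, adjusted p = 0.000564) and LOX in RT112 (1.26, adjusted p = 0.0286) were called higher, and no call among the members was lost. The genes called rose from 9044 to 9683 in J82, from 10150 to 10692 in RT112 and from 11518 to 11965 in TCCSUP. In 253J they fell from 10915 to 8546. Of 275 values of the 9 enzymes under settings that keep all libraries, 260 kept direction and call, 6 lost and 4 gained the call and 5 turned sign. Counts of 5 or fewer in a control library (P4HA3 in J82, LOX in 253J) limit the size of those changes.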

Other observations

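The 12 general chaperones of the endoplasmic reticulum, where HSP47 works, gave more lower than higher calls with CM-1758 in each line. In 253J 12 were lower and 0 higher, in TCCSUP 9 and 0, in J82 7 and 0 and in RT112 4 and 1 with 7 not called, with median log2 fold changes of -1.58, -1.56, -0.69 and -0.26 beside 0.10, 0.20, 0.05 and 0.12 for all tested genes. Over all tested genes 22.4% were lower and 28.8% higher in 253J, 22.1% and 32% in TCCSUP, 18.5% and 24% in J82 and 20.2% and 27.4% in RT112, and the counts of this and the following lists are to be read against these shares. The counts of 0 came from edgeR, and in 253J the count was also 0 at an unadjusted p under 0.05 and with DESeq2. In J82 it was 0 at an unadjusted p under 0.05 and 1 with DESeq2, and in TCCSUP it was 1 by either. PDIA6, CANX and PDIA3 had the largest mean change and were lower in all 4 lines. PDIA6, a protein disulfide isomerase, had log2 fold changes of -2.45 in 253J, -2.17 in TCCSUP, -0.97 in J82 and -0.60 in RT112. CANX, the lectin chaperone calnexin, had -2.53, -1.73, -1.10 and -0.82 in the same order. No gene of this list had as low a log2 fold change as SERPINH1 in any line. SERPINH1 was chosen by its fall, and 0.413% to 0.610% of all tested genes lay below it. A short list would thus hold few or no such genes whatever its function.

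The 11 genes of HSF1 and the heat shock response gave 4 lower and 2 higher in 253J, 4 and 2 in TCCSUP, 10 and 0 in J82 and 7 and 2 in RT112, with medians of -0.09, -0.40, -0.91 and -0.51. The count of 0 in J82, from edgeR, was also 0 at an unadjusted p under 0.05 and with DESeq2. HSPD1, HSPE1 and HSPA8 had the largest mean change. HSPE1, the mitochondrial co-chaperonin, was lower in all 4 lines, with log2 fold changes of -1.11 in 253J, -0.72 in TCCSUP, -1.15 in J82 and -1.39 in RT112. The cytosolic chaperone HSPA1A, chosen after its values were seen, was not called in 253J or J82, lower in RT112 (-0.51, adjusted p = 0.0288) and higher in TCCSUP (0.57, adjusted p = 0.0142). HSF1 itself was lower in J82 (-0.61) and TCCSUP (-0.84), and its value was -0.09 in 253J and -0.40 in RT112, not called. Of the tested genes 70 held the heat shock element of the SERPINH1 promoter in their own 250 bases. Lower and higher among them were 19 and 19 in 253J, 20 and 17 in TCCSUP, 19 and 11 in J82 and 16 and 14 in RT112. SERPINH1 itself, chosen by its fall, is among the 70 and adds to the lower counts. These counts too are to be read against the shares of all genes given above. In TCCSUP 1 of the 70 had a lower log2 fold change than SERPINH1 and in each of the other lines 0 did. Of all tested genes 0.413% to 0.610% did, so these low counts follow from the choice of SERPINH1. This search was added after the values of SERPINH1 were seen.

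Of 18 other serpin genes 16 were tested. More of those called rose than fell, as over all genes. Lower and higher were 2 and 6 in 253J, 2 and 8 in TCCSUP, 3 and 6 in J82 and 2 and 8 in RT112. SERPINA5 had the largest mean change, from 0 counts in both controls to 9 and 11 in 253J, 12 and 16 in J82 and 33 and 38 in RT112, which is at least 3.25-fold, 4.39-fold and 13.7-fold higher against 3 counts per library. In TCCSUP it rose from 6 and 8 to 278 and 363 counts (log2 fold change 5.47, adjusted p = 5.49e-07). SERPING1, next by mean change, had at most 15 counts in any control library and 31 in any treated library. SERPINB2, an inhibitor of plasminogen activators, rose by 2.14 in TCCSUP (adjusted p = 1.86e-07) and 2.66 in RT112 (adjusted p = 8.14e-08) on the log2 scale. In J82 it went from 0 counts in both controls to 24 and 28 (adjusted p = 7.59e-06), at least 8.14-fold higher against 3 counts per library. In 253J it was called higher (adjusted p = 0.0106) but went from 0 counts in both controls to 3 in both treated libraries. That is no more than the floor, so no size is given for 253J.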
